A study of Mus musculus with 14 samples.

Results

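Inhibitory neurons of the I1 family were compared with those of the I3 family in the medial vestibular nucleus (MVN) of the mouse brainstem. The sample labels set the sides of the comparison, which was chosen with earlier results of these data known. Of the 14 arrays of the series, 8 entered it, 4 from the I1 family and 4 from the I3 family. They came from 4 of the 7 pools, namely I1a and I1b on one side and I3a and I3b on the other, each measured on 2 technical arrays. All genes on the arrays were compared as I1 minus I3, with the 2 arrays of a pool averaged first. Where both array values of a pool are given, the pool stands in brackets after them.

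The MVN receives signals of head rotation from the inner ear and, with the cerebellum, sets the timing and strength of reflex eye and head movements. Its inhibitory neurons use GABA, glycine or both as transmitters, and some project across the midline or to the cerebellum while others act locally. Neurons that fire at high rates depend on sodium channels that recover quickly, on potassium channels that end each spike quickly, on thick axons rich in neurofilaments and on fast calcium sensors at their terminals. How these gene groups lie between the inhibitory families is described below, with gene lists that were also written with earlier results known.

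Every pool, in both families and in the rest of the series, carries the same labels otherwise. The mice were on the C57BL/6 background, aged 24 to 32 days after birth, and came from 3 reporter lines named YFP-16, GIN and GlyT2-13. Those mark cells through regulatory sequences of Thy1, Gad1 and Slc6a5. The labels do not say how many cells, or from which line, went into each pool. Single-cell cDNA was amplified, cells were classed into types by transmitter genes, ion channels and marker genes, and the cDNA of a type was pooled, so levels of such genes are not independent evidence on the types. The further pools E1 and E2, classed as excitatory, and I2, an inhibitory type, serve here to place the I1 and I3 values. They also entered the filter on level, the choice of probe set per gene and the fit behind the standard errors (SE) and p-values. In that fit the gap between E1 and E2 adds to the estimate of spread. The design also names a type E3, not analysed here. At 1 pool per type and 2 types per family, p-values rest on 2 pools a side, and a pool with fewer cells expressing a gene cannot be told apart from one with less RNA per cell.

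Values are log2 signals, in which 1 unit is a doubling. The lowest value of the table, 2.387, is its floor. A gene was kept where at least 1 of the 7 types had a mean of 5 or more, which held for 4409 of 16244 genes (27.1%). The 4 pools read as neurons: all 8 pan-neuronal marker genes on the arrays reached 5 in at least 1 of them. These markers were not level between the families, with list means of 8.67 (I1a), 8.99 (I1b), 8.16 (I3a) and 8.26 (I3b). For 3 of the 8 (Rbfox3, Elavl2 and Syt1) all I1 arrays lay above all I3 arrays and the family means differed by at least 1, and for 0 the reverse held. Over all genes kept these shares were 3.08% and 3.81%. Rbfox3 read 8.55 (I1a), 9.48 (I1b), 8.37 (I3a) and 5.39 (I3b). Of markers of other cells, 0 of 7 for microglia, 0 of 8 for endothelium and pericytes and 0 of 3 for cholinergic neurons reached 5, as did 2 of 12 for astrocytes (S100b and Aldoc) and 2 of 12 for oligodendrocytes (Mbp and Cnp). So did 1 of 6 for cerebellar cells (Neurod1) and 1 of 7 for monoamine neurons (Dbh). Mean levels of the oligodendrocyte list were 2.87 (I1a), 3.26 (I1b), 3.58 (I3a) and 2.96 (I3b), with 8 of the 12 below 3 in all 4 pools, among them Mog and Mag. Cnp read 4.93 (I1a), 6.62 (I1b), 9.14 (I3a) and 5.14 (I3b), and Mbp 2.43, 5.50, 6.20 and 3.43 in the same order. Opalin at 3.04 and the astrocyte gene Gja1 at 4.19 were also highest in I3a, against at most 2.47 and 2.66 in the other 3 pools. The part of these markers in the gene results was not tested. Among the bacterial control transcripts of the array, Lys read 10.65 in I1a and 10.84 in I1b against 12 in I3a and 11.64 in I3b. Lys and Dap each read lower on all 4 I1 arrays than on all 4 I3 arrays, with family means at least 1 apart. In E1, E2 and I2, Lys read 10.49, 10.37 and 11.51, and Dap 4.70, 4.71 and 6.33. BioB, Cre and Phe overlapped between the families. The part of these controls in the gene results was not tested.

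The classing of both families as inhibitory rested in part on transmitter genes, so their levels here describe the pools and do not test the classing. Slc32a1, which loads GABA and glycine into vesicles, read between 9.19 and 9.65 on all 8 arrays, against 6.60 in E1 and 5.41 in E2. Gad2, a GABA-synthesising enzyme, read 8.41 (I1a), 7.92 (I1b), 8.99 (I3a) and 9.34 (I3b), a difference of -1.0 (SE 0.34, adjusted p 0.382). Its relative Gad1 differed by -0.38, Slc6a5, the glycine transporter of glycinergic terminals, by 0.29 and Abat, which breaks GABA down, by -0.36. The vesicular glutamate transporter Slc17a6, a gene of excitatory neurons, was the exception to this likeness. It read 8.66 and 8.53 (I1a), 10.48 and 10.48 (I1b), 6.94 and 6.92 (I3a), and 3.32 and 3.06 (I3b). The I1b value came close to the 11.11 of E1 and the 10.98 of E2, and I3b lay near the floor. Whether the I1 and I3a pools held cells of more than 1 kind was not tested.

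No gene was called between the families (0.0% of 4409) by limma on pool means, where a gene had to differ by at least 1 with an adjusted p under 0.05. The smallest adjusted p was 0.142. At an unadjusted p under 0.05 there were 496 genes, 192 higher in I1 and 304 higher in I3. When the 14 arrays were fitted together as separate values, with their pool as a random block, 114 genes were called. That fit counts technical arrays of the same pool and adds no pools. An exact permutation of 2 against 2 pools cannot go below p = 0.333 for a single gene. The genes below are therefore given by their levels and differences. A gene is described as apart when all 4 arrays of one family lay above all 4 of the other and the family means differed by at least 1 log2 unit. By this description 136 genes were apart and higher in I1 (3.08% of the genes kept), and 168 were apart and higher in I3 (3.81%). Of these, 40 and 37 differed by at least 2, and 19 and 13 by at least 3.

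**Figure D1:**
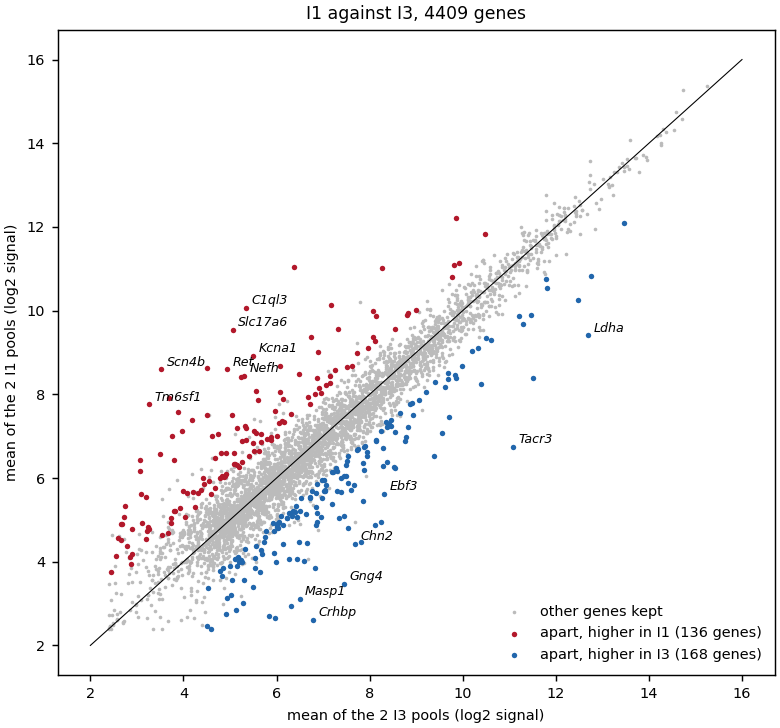
Mean log2 signal of the 2 I1 pools (vertical axis) against that of the 2 I3 pools (horizontal axis), 1 point per gene kept, with the line of equality. Red points are the 136 genes apart and higher in I1, blue points the 168 apart and higher in I3; Scn4b lies 5.08 units above the line and Tacr3 4.34 units below it.

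Single pools weigh on these counts, since leaving one out removes a demand on the gene. Without I1a, 347 genes were apart and higher in I1, and without I3b 279. Without I1b, 328 were apart and higher in I3, and without I3a 314. Over all genes kept, the median gap was 0.39 between I1a and I1b and 0.30 between I3a and I3b. The median absolute difference between the family means, each over 2 pools, was 0.30. Of the 110 genes whose differences are given, 44 fell below their difference divided by 1.5 when 1 pool was left out. That pool was I1b for 15, I3b for 12, I3a for 10 and I1a for 7. Of the 136 genes higher in I1, 105 (77.2%) read higher in I1b than in I1a, against 67.2% of all genes kept. For some genes the 2 pools of each family split. Zic1, a zinc finger factor of the dorsal hindbrain, read 3.63 in I1a and 7.92 in I1b but 8.22 in I3a and 3.0 in I3b, so the family means were similar. St18, a zinc finger factor of neuronal differentiation, split the other way, with 5.48 (I1a), 2.63 (I1b), 4.82 (I3a) and 8.54 (I3b). Its mean was higher in I3, but I1a lay above I3a.

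Ion channel genes of rapid firing were among the largest differences on the I1 side. Scn4b (Entrez gene 399548), a sodium channel subunit that supports rapid repeated spikes, had the largest difference of all, 5.08 (SE 0.84, adjusted p 0.162). It read 7.61 and 7.29 (I1a), 9.76 and 9.74 (I1b), 4.44 and 4.01 (I3a), and 2.73 and 2.91 (I3b). All I1 arrays thus stood above all I3 arrays, with I1b highest and I3b near the floor. The pore-forming subunits of the sodium channel did not all lie on the same side. Scn8a, the channel of axon initial segments and nodes, differed by 1.26 and Scn1a, a channel of fast-firing neurons, by 0.78 (SE 0.25). Scn2a, more typical of young or unmyelinated axons, had the opposite sign, with a difference of -2.25 (SE 0.49, adjusted p 0.256). It read 6.83 and 6.64 (I1a), 8.14 and 8.21 (I1b), 9.73 and 9.89 (I3a), and 9.59 and 9.60 (I3b). The auxiliary subunit Scn3b followed Scn2a at -1.75, as did Scn3a, an embryonic channel, at -1.24, although the latter was not apart. Of the 10 sodium channel genes and Fgf homologous factors kept, 4 were higher in I1 and 6 higher in I3, 2 were apart in each direction and the median was -0.47. Over all genes kept the median was -0.04, with 46.2% higher in I1, 3.08% apart and higher in I1, and 3.81% apart and higher in I3.

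Voltage-gated potassium channel genes leaned to I1, and other potassium channel genes did not. Of the 17 voltage-gated ones kept, of 32 on the arrays, 12 were higher in I1, 4 were apart and higher in I1, 0 were apart and higher in I3, and the median was 0.25. Among all genes kept, 46.2% were higher in I1, 3.08% were apart and higher in I1, and 3.81% apart and higher in I3. Kcna1 (Entrez gene 16485), an axonal channel that limits repetitive discharge, differed by 3.43 (SE 0.46, adjusted p 0.142). Its arrays read 8.51 and 8.40 (I1a), 9.38 and 9.40 (I1b), 5.76 and 5.67 (I3a), and 5.06 and 5.47 (I3b). Its partner Kcna2 had a difference of 1.14, and the pools stood much closer, with 8.72 in I1a and 8.30 in I3a. Among the channels of rapid repolarisation, Kcnc1 was 0.93 higher in I1. Kcnc2 was 3.07 higher, but that mean came from I1b: it read 4.70 and 4.88 (I1a), 8.26 and 8.42 (I1b), 4.65 and 4.51 (I3a), and 2.43 and 2.39 (I3b). Kcnip4, which binds and modifies A-type channels, differed by 1.05. Of 7 other potassium, HCN and leak channels kept, 3 were higher in I1 and 4 in I3, with a median of -0.07 and 1 apart. That was Kcnj3, a G protein-gated inward rectifier, which differed by 2.27, with 7.32 in I1a and 8.39 in I1b against 4.80 in I3a and 6.38 in I3b. Auxiliary calcium channel subunits divided, as Cacna2d3 differed by 1.96 and Cacna2d2 by -1.37 (SE 0.27, adjusted p 0.225), both apart.

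**Figure D2:**
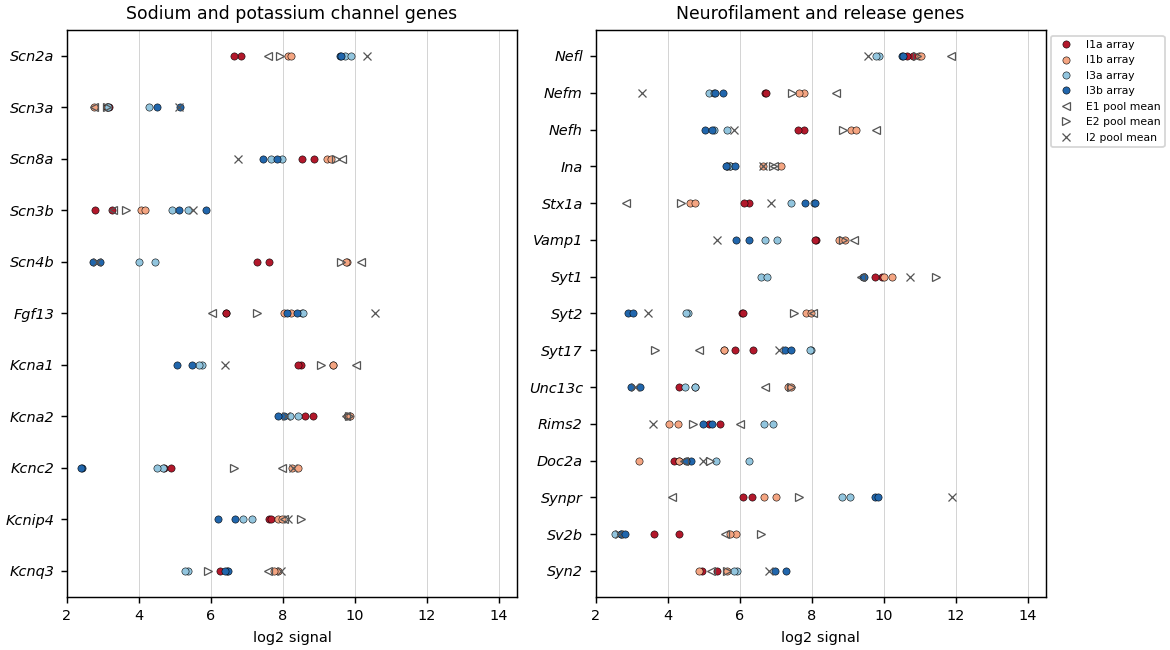
Log2 signal of sodium and potassium channel genes that differed by at least 1 (left), and of neurofilament and release genes (right); filled points are single arrays of I1a, I1b, I3a and I3b, and grey marks are pool means of E1, E2 and I2. Scn4b, Kcna1, Nefh and Vamp1 show all red points to the right of all blue points, while Scn2a, Stx1a and Synpr show the reverse.

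Neurofilament genes, which code for the structural filaments of large axons, were higher in I1 in 4 of 4 genes kept, with a median of 1.31 and 2 apart. The shares among all genes kept were 46.2% higher in I1 and 3.08% apart and higher in I1. Nefh, the heavy subunit, differed by 3.14 (SE 0.56, adjusted p 0.199), and Nefm, the medium subunit, by 1.91. Nefh read 7.79 and 7.63 (I1a), 9.10 and 9.22 (I1b), 5.64 and 5.29 (I3a), and 5.04 and 5.22 (I3b). Nefl, the light subunit, differed by 0.70 without overlap between the families, and Ina, an internexin, by 0.58 with overlap. Among neuronal tubulins and microtubule genes the sole gene apart of 11 kept was Tubb2b, an isotype of young neurons, at -1.17.

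Release genes lay on both sides. Of the 19 genes of the SNARE and release machinery kept, 11 were higher in I1 and 8 in I3, 3 were apart in each direction, and the median was 0.02. Among all genes kept, 46.2% were higher in I1, 3.08% apart and higher in I1, and 3.81% apart and higher in I3. Higher in I1 were Syt2, the fast calcium sensor of brainstem terminals, by 3.23 (SE 0.76, adjusted p 0.276), its relative Syt1 by 1.93, and Vamp1, a vesicle SNARE protein, by 2.0 (SE 0.39). Syt2 read 6.06 and 6.09 (I1a), 7.85 and 7.98 (I1b), 4.58 and 4.52 (I3a), and 2.90 and 3.05 (I3b). Syt1 read 6.59 and 6.77 in I3a but 9.43 and 9.46 in I3b, so that 1 I3 pool alone was far below the I1 range of 9.77 to 10.23. On the I3 side were Stx1a, a plasma membrane SNARE protein, at -2.40 (SE 0.67), Syt17 at -1.82 and Doc2a, a calcium sensor of spontaneous release, at -1.19. Stx1a read 6.27 and 6.12 (I1a), 4.63 and 4.76 (I1b), 7.43 and 8.07 (I3a), and 7.81 and 8.09 (I3b). Vamp2, the related vesicle SNARE protein of most forebrain terminals, differed by -0.74 and Cplx1, which regulates vesicle fusion, by 0.98 (SE 0.18, adjusted p 0.218). Vesicle membrane genes divided in the same manner, with Sv2b at 2.21 against Synpr, or synaptoporin, at -2.85 and Syn2, a synapsin, at -1.29.

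Syt2 was higher in I1 together with the nuclear receptor Esrrg, which differed by 1.74, and its promoter is shown because it holds a match to the element of that receptor family. The element was searched as TNAAGGTCA on both strands, in windows from 250 bases before to 50 after each annotated start (RefSeq, GRCm38.p6). Of all 32851 windows, 1.28% held a match. Among genes kept with a window it was 0.781% of 3587, among those apart and higher in I1 2 of 110 (Syt2 and Col11a1), and among those higher in I3 0 of 130. The Syt2 window lies at chr1:134646362-134646661 on the plus strand, capitals mark the match, read here on the opposite strand, and it begins 167 bases before the start.
Syt2: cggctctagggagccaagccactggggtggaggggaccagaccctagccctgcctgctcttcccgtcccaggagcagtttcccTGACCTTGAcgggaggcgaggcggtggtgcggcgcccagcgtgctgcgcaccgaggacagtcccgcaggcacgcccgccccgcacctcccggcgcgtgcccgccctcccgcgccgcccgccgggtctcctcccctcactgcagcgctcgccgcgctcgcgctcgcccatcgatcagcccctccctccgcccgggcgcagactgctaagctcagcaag
A second window of Syt2, at another annotated start, held no match. A match describes letters only.

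Genes of synapse formation and trophic signalling stood mostly on the I1 side. Of the 9 synaptic organiser genes kept, 8 were higher in I1, 3 were apart and higher in I1, 0 were apart and higher in I3, and the median was 1.24. Among all genes kept these shares were 46.2%, 3.08% and 3.81%. C1ql3 (Entrez gene 227580), a secreted protein that binds synaptic receptors, differed by 4.73 (SE 0.63, adjusted p 0.142), with arrays at 9.42 and 9.33 (I1a), 10.73 and 10.82 (I1b), 5.12 and 4.39 (I3a), and 5.70 and 6.19 (I3b). Its relative Cbln1, which links neurexins to glutamate receptors of the delta class, differed by 2.51. It read 8.47 in I1a and 7.67 in I1b against 6.79 in I3a and 4.34 in I3b. Lrrtm1, a postsynaptic neurexin partner, differed by 1.51.

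Of 14 trophic factors and receptor kinases kept, 9 were higher in I1, with 5 apart and higher in I1, 0 apart and higher in I3, and a median of 0.96. Among all genes kept these shares were 46.2%, 3.08% and 3.81%. Ret (Entrez gene 19713), the signalling receptor for ligands of the GDNF family, differed by 3.66 (SE 0.70, adjusted p 0.225). It read 8.33 and 8.18 (I1a), 8.95 and 8.95 (I1b), 3.95 and 4.69 (I3a), and 5.62 and 5.51 (I3b). The receptor of hepatocyte growth factor, Met, differed by 2.35, but its I1a arrays read 3.95 and 3.80 against 6.18 and 6.38 in I1b. Lifr, a receptor of leukaemia inhibitory factor, differed by 1.76, and the growth factors Fgf1 and Fgf9 by 1.70 and 1.11. Igf1 had the opposite sign at -1.87 and was not apart, as I1a read 7.88 and I3a 6.37. Igfbp5 was also higher in I3 and not apart, with 3.47 in I1a and 2.87 in I1b against 3.85 in I3a and 6.63 in I3b. Calcium-binding proteins also leaned to I1, with 8 of 10 higher there, 2 apart and a median of 0.82. Caln1, a calmodulin-like protein, differed by 2.64 (SE 0.60), and S100b, also a marker of astrocytes, by 1.61. Of the 12 astrocyte markers on the arrays, 8 lay below 3 in all 4 pools. Aldoc, another of them, read from 11.63 to 12.32 and Glul from 4.41 to 4.80. The part of astrocyte signal in S100b was not tested. Pvalb, the parvalbumin of many fast-spiking cells, differed by 0.26, with 9.05 in I1a and 7.99 in I1b against 8.34 in I3a and 8.18 in I3b.

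The remaining large I1 differences belonged to genes of varied roles. Tm6sf1, a lysosomal membrane protein, differed by 4.50 (SE 0.63, adjusted p 0.142), with both I1 pools between 7.70 and 7.88 and both I3 pools between 2.79 and 3.89. Tesc, or tescalcin, a calcium-binding regulator of proton exchange, differed by 3.36 and Nell1, a secreted factor, by 3.19 (SE 0.50, adjusted p 0.162). Rgs4, which shortens G protein signals, differed by 4.13, and Pcdh8, an activity-regulated protocadherin, by 4.22, with 6.27 in I1a and 9.54 in I1b. Cd24a, a surface glycoprotein, had a difference of 4.67 that rested on I3a. It read 11.84 and 11.81 (I1a), 10.26 and 10.23 (I1b), 3.18 and 3.15 (I3a), but 9.47 and 9.67 (I3b), with an SE of 2.0. Six4, a homeobox factor, differed by 2.41 (SE 0.30, adjusted p 0.142), with arrays from 6.77 to 7.30 in I1 and from 4.13 to 5.11 in I3.

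**Figure D3:**
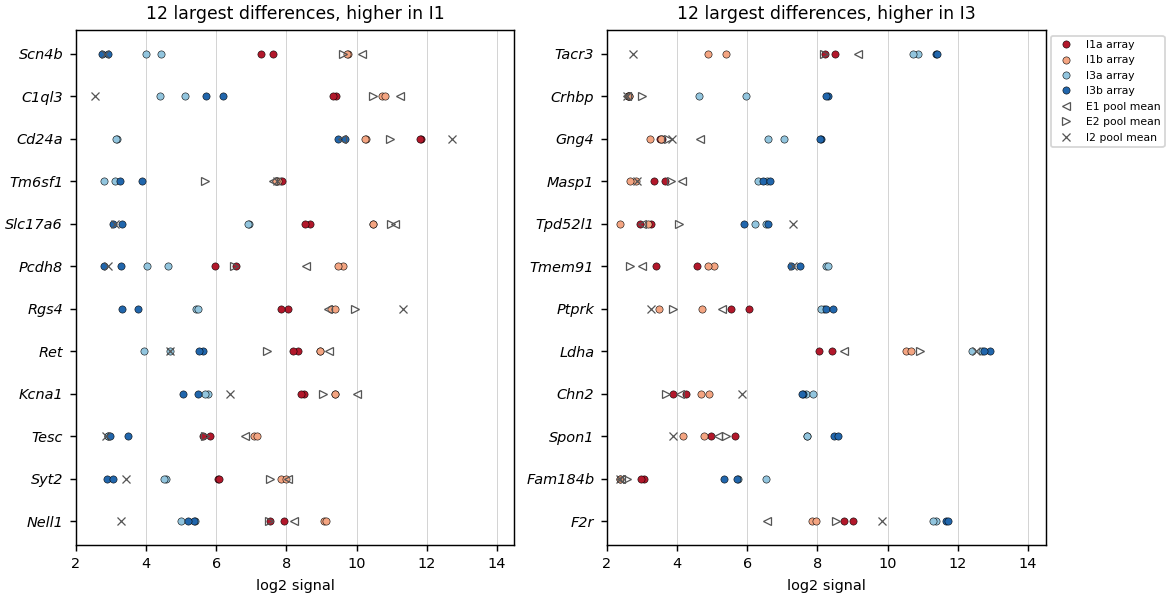
Log2 signal of 12 genes per direction, those that differed most among genes apart; filled points are single arrays of I1a, I1b, I3a and I3b, and grey marks are pool means of E1, E2 and I2. Cd24a shows the 2 I3a arrays near 3.2 with I3b near 9.6, whereas the 4 I3 arrays of Masp1 and those of Chn2 sit close together.

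The largest I3 difference was that of a receptor. Tacr3 (Entrez gene 21338), the neurokinin B receptor, differed by -4.34 (SE 1.03, adjusted p 0.276). It read 8.51 and 8.22 (I1a), 4.88 and 5.38 (I1b), 10.86 and 10.73 (I3a), and 11.37 and 11.39 (I3b). A further probe set of Tacr3 gave -3.67. Crhbp, which sequesters the stress peptide Crh, had a difference of -4.16 (SE 0.94, adjusted p 0.256) and read 2.61 to 2.64 on all I1 arrays, 4.63 and 5.96 in I3a, and 8.30 and 8.24 in I3b. The peptide itself did not part the families, at 2.86 in I1a and 8.29 in I1b against 9.69 in I3a and 4.19 in I3b. Gng4 (Entrez gene 14706), a G protein gamma subunit, differed by -3.98 (SE 0.52, adjusted p 0.142), with 3.58 and 3.51 (I1a), 3.55 and 3.22 (I1b), 7.04 and 6.59 (I3a), and 8.11 and 8.07 (I3b). Of 12 heterotrimeric G protein subunits kept it was the sole one apart, where 3.81% of all genes kept were apart and higher in I3. The other 11 G protein subunits differed by less than 1. Among regulators of these proteins, Rgs20 differed by -2.36 (SE 0.46, adjusted p 0.225) and Rgs19 by -1.01, opposite in sign to Rgs4. Rgs19 read 5.63 in I1a and 4.21 in I1b against 5.90 in I3a and 5.97 in I3b, and without I1b it differed by -0.30. F2r, the thrombin receptor, differed by -3.12, with arrays from 7.84 to 9.0 in I1 and from 11.30 to 11.71 in I3.

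Further genes of varied roles had I3 differences of more than 3 units. Masp1 (Entrez gene 17174), a protease of the lectin complement pathway, differed by -3.38 (SE 0.35, adjusted p 0.142). It read 3.33 and 3.64 (I1a), 2.83 and 2.65 (I1b), 6.31 and 6.57 (I3a), and 6.44 and 6.66 (I3b). Chn2, a Rac GTPase-activating chimaerin that responds to diacylglycerol, differed by -3.25 (SE 0.33, adjusted p 0.142), with 3.87 to 4.91 on I1 arrays and 7.56 to 7.88 on I3 arrays. Spon1, a secreted adhesion protein of axon outgrowth, differed by -3.23 (SE 0.41, adjusted p 0.142), and a further probe set by -1.91. Ptprk, a receptor tyrosine phosphatase, differed by -3.30, with 5.80 in I1a and 4.10 in I1b against 8.14 in I3a and 8.34 in I3b, and by -3.99 on a further probe set. The list of the largest was completed by Tpd52l1 at -3.38, Tmem91 at -3.34 and Fam184b at -3.13.

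Guidance and adhesion genes were spread over both sides, with 3 of 21 guidance genes apart in each direction and a median of -0.20. Among all genes kept, 3.08% were apart and higher in I1, 3.81% apart and higher in I3, and the median was -0.04. Sema3e at -1.30, Sema4a at -1.71 and Unc5c, a netrin receptor, at -1.89 were higher in I3. The receptor Ephb1 at 2.37, its ligand Efnb2 at 1.16 and Sema7a at 1.22 were higher in I1. Of 20 contactins, cadherins and protocadherins, 2 were apart in each direction. Cntn5, a neuronal adhesion protein of the contactin family, differed by -1.97 (SE 0.29, adjusted p 0.154), with arrays from 4.62 to 4.98 in I1 and from 6.59 to 7.01 in I3. Neuropeptide and granin genes were higher in I3 in 10 of 14 and in I1 in 4, with a median of -0.33. The share higher in I1 was 46.2% among all genes kept. Besides Crhbp, only Vgf was apart on that side, at -1.88, while Cck was 1.31 higher in I1 with all arrays of I1b, I3a and I3b at 2.75 or below.

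Transmitter receptors gave few genes apart. Grm7, the presynaptic metabotropic glutamate receptor of low affinity, differed by -1.17 (SE 0.47, adjusted p 0.437), with 8.56 and 8.33 (I1a), 9.54 and 9.68 (I1b), 10.57 and 10.67 (I3a), and 9.84 and 9.73 (I3b). Grik3, a kainate receptor subunit, differed by 2.30, and Glra1, the adult glycine receptor subunit, by 1.23, with 10.78 in I1a and 11.52 in I1b against 10.31 in I3a and 9.52 in I3b. Of 9 GABA and glycine receptor genes kept, Glra1 was the sole one apart, and the median was 0.00. Among all genes kept, 3.08% were apart and higher in I1, and the median was -0.04.

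Transcription factor genes lay on both sides. Of 20 hindbrain and neuronal factors kept, 7 were higher in I1 and 13 in I3, with 3 apart in each direction and a median of -0.13. Among all genes kept, 46.2% were higher in I1, 3.08% apart and higher in I1, and 3.81% apart and higher in I3. Ebf3 (Entrez gene 13593), a factor of late neuronal differentiation, differed by -2.68 (SE 0.64, adjusted p 0.276), with 6.79 and 6.23 (I1a), 4.51 and 4.98 (I1b), 8.19 and 8.29 (I3a), and 8.31 and 8.43 (I3b). Prdm8, a repressor of neuronal wiring genes, differed by -2.35 and Neurod1, a bHLH activator, by -1.99. Hoxb3, of the hindbrain Hox cluster, differed by -2.27, with 8.54 in I3a and 8.51 in I3b against 5.58 in I1a and 6.93 in I1b. On the I1 side were the nuclear receptors Esrrg at 1.74 (SE 0.32, adjusted p 0.221) and Rora at 1.34, and the homeobox gene Irx1 at 1.47. Esrrg read 9.82 and 9.69 (I1a), 10.04 and 9.96 (I1b), 7.70 and 7.83 (I3a), and 8.45 and 8.58 (I3b).

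Further regulators, chosen after their values were seen, lay beside Ebf3. Zfp521 and Zfp423, paired zinc finger proteins known to bind Ebf factors, differed by -1.79 (SE 0.45) and -1.52 (SE 0.32). Zfp521 read between 6.62 and 7.27 on the I1 arrays and between 8.58 and 8.92 on the I3 arrays. The E-proteins Tcf4 and Tcf12, partners of Neurod1-type factors, differed by -2.74 and -1.24. Tcf4 read 6.10 in I1a and 3.50 in I1b against 7.46 in I3a and 7.63 in I3b, and without I1b it differed by -1.44. A further probe set of Tcf4 gave -0.65 and was not apart, since I1a at 5.65 lay above I3a at 4.47 and I3b at 5.21, and I1b at 2.72 was low. Of DNA methylation enzymes, Dnmt1 differed by -1.49 (SE 0.23, adjusted p 0.162), Dnmt3a by -1.26 and the demethylase Tet1 by -1.37. Dnmt1 had further probe sets at -0.71 and -1.42.

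Because Ebf3 differed, the Ebf binding motif was also searched in the promoter windows, as TCCC and GGGA with any 2 bases between them, on both strands. It occurred in 0.904% of all windows, in 1.34% of the genes kept, in 0 of 110 genes apart and higher in I1 and in 1 of 130 higher in I3, Grm7 (0.769%). With 1 match, the share in the I3 genes cannot be told apart from that in the genes kept, in either direction. Here too a match describes letters only. These 2 motifs were the only ones searched, and both were chosen after the values were seen.

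Metabolic genes differed in single enzymes rather than in whole systems. Ldha, the lactate dehydrogenase subunit that favours lactate, differed by -3.28 (SE 0.97, adjusted p 0.352), with 8.41 and 8.03 (I1a), 10.53 and 10.67 (I1b), 12.41 and 12.69 (I3a), and 12.93 and 12.74 (I3b). Its partner subunit Ldhb differed by 0.60 (SE 0.19), with arrays from 12.42 to 12.78 in I1 and from 11.79 to 12.20 in I3. The glycolytic enzyme Pkm was 1.18 higher in I1. Respiratory chain and ATP synthase genes gave 39 higher in I1 and 34 in I3 of 73 kept, none of the 73 differed by 1 or more, and the median was 0.01. All 16 proteasome genes kept also differed by less than 1. Cytosolic ribosomal protein genes were higher in I3 in 18 of 20 and in I1 in 2, by a median of -0.43, with Rpl22 apart at -1.02. Among all genes kept, 46.2% were higher in I1, 3.81% were apart and higher in I3, and the median was -0.04.

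Single enzymes of lipid synthesis are given as examples that were chosen after their values were seen, and no list of such enzymes was counted. Acly, which makes cytosolic acetyl-CoA from citrate, differed by -1.93 (SE 0.29, adjusted p 0.157). It read 10.95 and 10.96 (I1a), 10.67 and 10.71 (I1b), 12.32 and 12.47 (I3a), and 13.14 and 13.05 (I3b), and its 2 further probe sets gave -2.09 and -2.01. The sterol enzymes Lss, Fdft1 and Msmo1 differed by -1.44, -1.23 and -1.21, all apart. Slc25a1, which exports citrate from mitochondria, had the opposite sign, at 1.14 (SE 0.25, adjusted p 0.256).

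**Figure D4:**
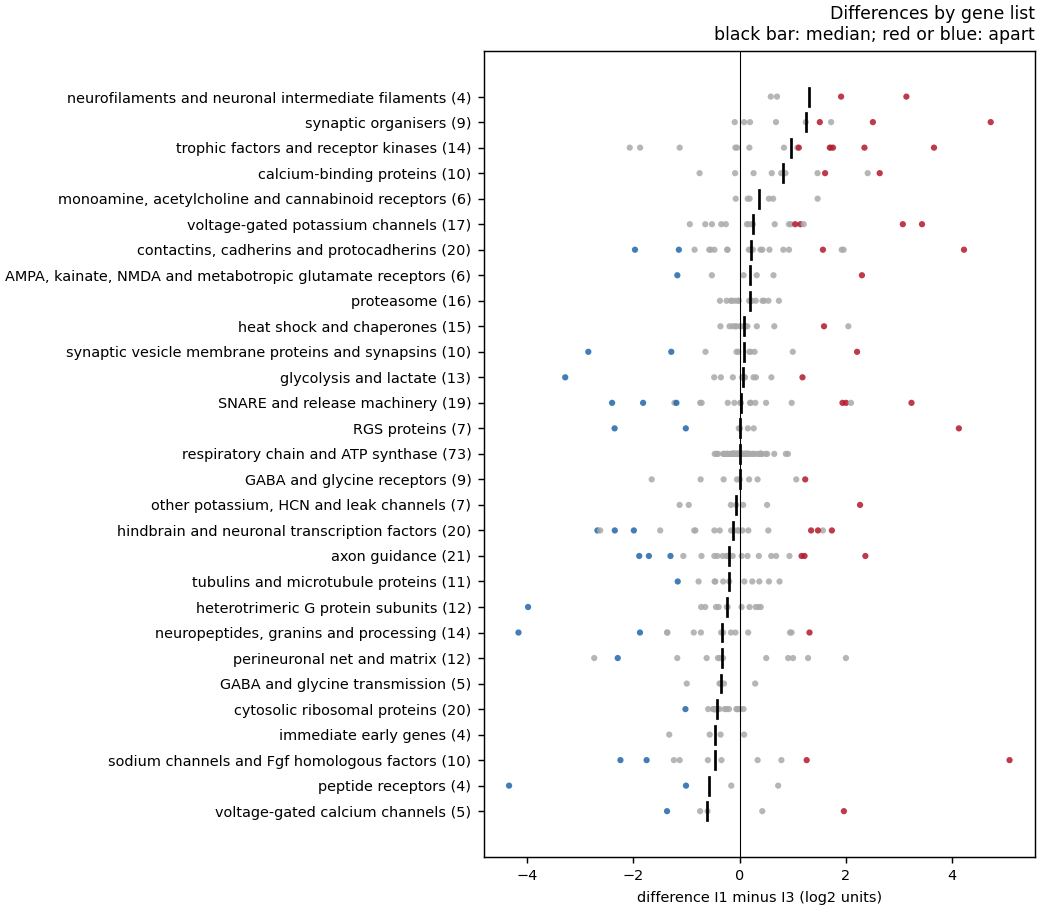
Difference I1 minus I3 in log2 units (horizontal axis) for the genes kept of each list with at least 4 kept, whose number stands in brackets; grey points are genes not apart, coloured points genes apart (red higher in I1, blue higher in I3), and black bars are medians. Medians run from 1.31 for the neurofilaments to -0.61 for the voltage-gated calcium channels, and all points of the respiratory chain lie within 1 unit of 0.

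Other probe sets of the same genes, read on the same arrays, were also compared. Of the genes apart and higher in I1, 15 had 17 further probe sets that reached 5, and 16 of these had the same sign, with a median of 0.83. Only 7 of the 17 differed by at least 1 in that direction. Of those higher in I3, 27 genes had 29 such sets, 28 had the same sign, 19 differed by at least 1 in that direction, and the median was -1.21. The opposite sign was seen for Tfam, a mitochondrial transcription factor (1.11 and then -0.59), and for Sypl, a synaptophysin relative (-1.24 and then 0.03).

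The other pools were placed between the family means of each gene apart. In 102 of the 136 genes higher in I1 (75.0%), both excitatory pools read nearer to the I1 mean than to the I3 mean. In the 168 genes higher in I3 this held for 114 (67.9%), and over all genes kept, most of which differ little between the families, for 48.0%. I2 read nearer to I1 in 47.1% and 46.4% of these genes and in 46.2% of all. The excitatory pools thus mostly read nearer to I1, whether I1 was high or low. C1ql3 read 11.25 in E1 and 10.46 in E2 but 2.55 in I2, and Ebf3 read 3.70, 4.72 and 2.84. Tm6sf1 (7.62, 5.68 and 7.74) stood at the I1 level in I2 also, while Scn2a (7.57, 7.93 and 10.34) shared its I3 level with I2.

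**Figure D5:**
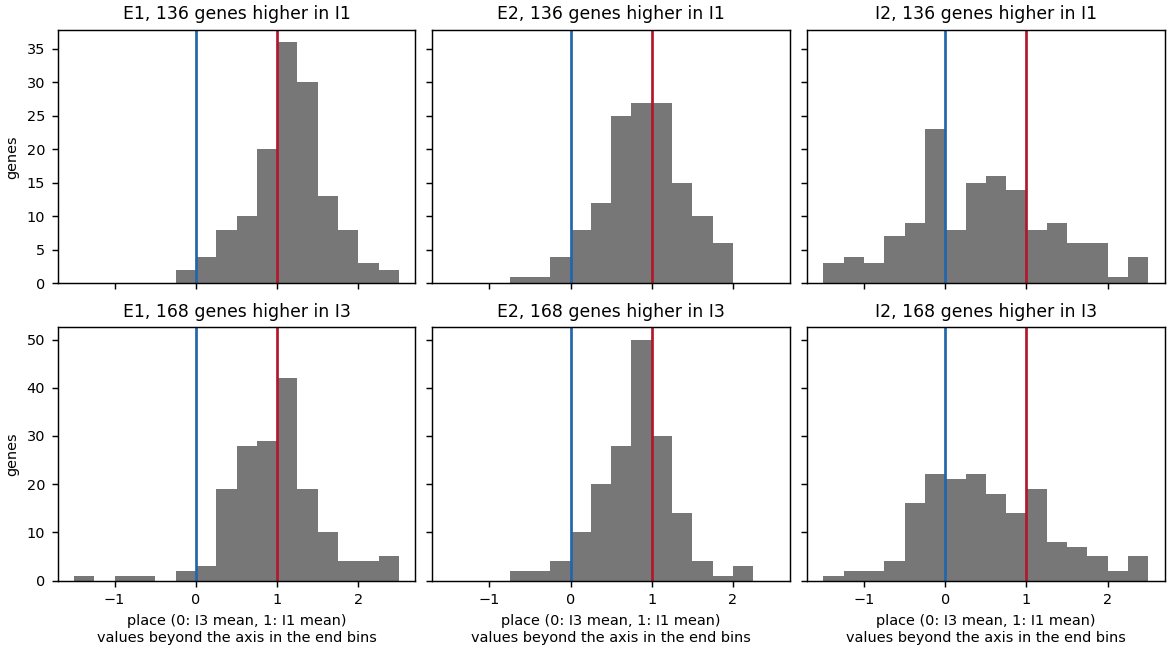
Place of E1, E2 and I2 on a scale where 0 (blue line) is the I3 mean and 1 (red line) the I1 mean of each gene, as counts of genes, for the 136 genes apart and higher in I1 (top) and the 168 apart and higher in I3 (bottom). E1 and E2 peak near the I1 line in both rows, while I2 is spread over both lines.

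Both I3 pools exceeded E1, E2 and I2 in 97 of the 168 genes higher in I3 (57.7%), against 12% of all genes kept. Both I1 pools did so in 7 of the 136 genes higher in I1 (5.15%), against 4.4% of all. Each set was selected for high arrays of its family, so a share above that of all genes was in part fixed in advance. In 29 of the 97 the margin was at least 1 log2 unit, with Ebf3, Fam184b, Ptprk, Rgs20, Spon1, Masp1, Crhbp and Gng4 among them, and in 0 of the 7. Those 7, named after their values were seen, were B3gat1, Cdh7, Marchf2, Six4, Slc25a1, Stam and Zfp804a. The count for I1 depended on single pools. Without I1a it was 135 of 347 genes apart (38.9%), without I1b 65 of 157 (41.4%), without I3a 9 of 192 (4.69%) and without I3b 19 of 279 (6.81%). That for I3 was 116 of 224 without I1a (51.8%), 120 of 328 without I1b (36.6%), 215 of 314 without I3a (68.5%) and 172 of 236 without I3b (72.9%). The contrast between the families narrowed without I1a, and without I1b the share was no larger for I3 than for I1. Without an I1 pool, though, I1 had to pass on a single pool and I3 still on both. The leave-outs therefore cannot show whether the contrast needed both I1 pools. Shares over all genes kept were not computed for these leave-outs. Fam184b, Masp1, Crhbp and Gng4 reached the filter level of 5 in I3 pools alone, so they were kept through I3. The bacterial control Lys also read higher in both I3 pools than in E1, E2 and I2, and its part was not tested. These counts were chosen after the data were seen.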

How the data were processed

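The 14 Affymetrix arrays are 2 technical replicates of each of 7 pools of amplified single-cell cDNA. The authors deposited log2 signals. The submitters' processing notes name affy and GCRMA, a method of background adjustment, normalization between arrays and probe set summary. Versions are not given in the sources used here, and the log base was read from the values, which run from a floor of 2.387 to 15.9. No count of reads exists, so signal over background and the number of pools limit precision. Between 54.0% and 56.7% of an array's probe sets lay within 0.1 of the floor.

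Of 30843 probe sets, 24034 carry 1 gene symbol in the platform annotation, 477 several and 6268 none, and 64 are controls. Symbols were updated through Entrez identifiers against RefSeq (GRCm38.p6), where 23883 matched. Each gene was represented by the brightest of its 1-symbol probe sets, by mean over the 14 arrays (5276 of 16244 genes have several), and kept at a mean of 5 in at least 1 type. Limma 3.58.1 in R 4.3.3 (lmFit, eBayes with an intensity trend) was fitted to pool means of 4 families, E, I1, I2 and I3, with 3 residual degrees of freedom. P-values were adjusted by Benjamini-Hochberg over all 4409 genes, and the fit was tested on simulated data.

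Named were, per direction, the 12 largest differences among genes apart (clone-type names left out), the 10 smallest p, up to 5 genes per list, all kept transmitter and neurofilament genes, and fixed paralog sets. Doc2a, Efnb2, Fgf1, Fgf9, Irx1, Rora and Syt17 (list members apart), Pvalb, Zic1, Tfam, Sypl and Col11a1 were added after their values were seen, as were the genes the text marks so. The comparison and lists were chosen with earlier results of these data known. Alternatives were other filters, quantile normalization, median centring, a floor of 5, the mean of probe sets, other fits, and leaving out each array and each pool.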

Additional observations from a re-analysis of the deposited data

How the results depend on the processing

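No gene was called with a filter at 7 or with 5 in an I1 or I3 type, after quantile normalization or median centring, with the mean of probe sets, with the I1 and I3 pools only, without I2, or without any array or pool (0 in each). Setting values under 5 to 5 gave 2 calls, Chn2 and Masp1, both with adjusted p 0.0375. Dropping the filter gave 1 call, as did dropping the intensity trend. With all 14 arrays and the pool as a random block 114 genes were called, 49 higher in I1 and 65 higher in I3. With a replicate block for the array number added, 104 were called, 101 of them shared. Same-numbered arrays deviated from their pool means with correlations of -0.12 to 0.21 between pools. Whether same-numbered arrays were processed together was not tested. Genes apart and higher in I1 numbered 90 with a filter at 7, 90 with values under 5 set to 5 and 89 with the mean of probe sets, and those higher in I3 102 with a filter at 7 and 100 with the mean of probe sets. Leaving out an array or a pool gave 131 to 347 in I1 and 157 to 328 in I3. Those that also exceeded E1, E2 and I2 numbered, for I1, 2 with a filter at 7, 13 after quantile normalization, 12 after centring, 3 with values under 5 set to 5, 2 with the mean of probe sets and 6 to 135 in the leave-outs. For I3 they numbered 60 with a filter at 7, 60 with the mean of probe sets and 90 to 215 in the leave-outs. Of 110 genes named with a difference, 6 changed sign in some setting. Cck came to 0 with values under 5 set to 5. Leaving out an array or pool gave ranges of -1.13 to 0.37 for Gad1, -0.18 to 0.76 for Slc6a5, -0.73 to 0.00 for Abat, -0.02 to 1.19 for Ina, -0.27 to 0.79 for Pvalb and 0.27 to 2.36 for Cck. The cause was not tested. Technical arrays share a pool, so they say nothing on the spread between animals or cells.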
